A study of Homo sapiens with 24 samples.

Results

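The genes described here carry out or direct the making of ribosomes. A list of 40 gene symbols defined them, and a gene was measured when the array held a probe set (a group of probes read as 1 value) that named its symbol and no other. This gave 35 of the 40, among 25029 genes read in the same way. All 35 passed the filter on low values, a highest group mean of at least log2 2.83, which left 17329 genes for testing. TAF1D, BOP1, PPAN and GNL3 were read by probe sets that name several genes and are given apart from the 35, and the expression of NPM1 was not analysed here.

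RNA was measured on 24 arrays of HEK293, a human embryonic kidney line, and BJ-hTERT, a line of human foreskin fibroblasts immortalised with telomerase. Both lines, mock cells included, carry a YWHAE-NUTM2 fusion gene with an HA tag, which doxycycline switches on. The 8 groups were HEK293 with doxycycline for 24 h, HEK293 mock at 24 h, HEK293 with doxycycline for 72 h, HEK293 mock at 72 h, and the same 4 groups of BJ-hTERT, with 3 arrays in each. Mock cells received the water in which the doxycycline was dissolved. The treatment protocol also mentions tetracycline and ethanol, while the samples are labelled doxycycline or mock (water). Cells without the fusion gene that received doxycycline are not analysed here, so an effect of the fusion and an effect of doxycycline itself cannot be told apart. The sources used here do not give the promoter behind the fusion or say whether a line is 1 clone. Nothing in the labels ties replicates to separate cultures, and p-values therefore cover only the spread between these arrays, which may be technical.

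Ribosomes are built in the nucleolus. RNA polymerase I copies the ribosomal DNA into a long precursor RNA, guided by factors such as UBTF, and small nucleolar ribonucleoproteins (snoRNPs) then modify and help to fold it. Separate sets of assembly factors shape the small and the large subunit before export. The transcription factor MYC is known to bind promoters of many of these genes, often at the E-box CACGTG, and growing cells carry more of these factors than resting cells.

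Arrays of the same group had correlations of 0.974 to 0.980 over the genes, which are not independent replicates, and the medians of the arrays over all probe sets lay within 0.137 log2 of each other. NUTM2B, a gene of the fusion partner's family read by 3 probe sets, checked the labels: it stood at 5.34 to 6.23 log2 in all HEK293 doxycycline arrays against 3.02 to 4.30 in the mock arrays, and at 5.57 to 6.51 in BJ-hTERT doxycycline arrays against 3.57 to 4.54 in mock arrays. The line labels were checked on cell type markers. All 12 fibroblast markers were lower in HEK293 mock cells than in BJ-hTERT mock cells at 24 h, with a mean level of 3.37 to 3.52 log2 in HEK293 arrays against 8.15 to 8.33 in BJ-hTERT arrays. Of 11 markers of HEK293, 6 were higher and 1 lower in HEK293. RNA came from whole cultures, so fewer cells of a type and less RNA per cell cannot be told apart.

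Promoters of 7 genes that fell with doxycycline in BJ-hTERT are shown because 6 of them hold the E-box. Sequences are from RefSeq on GRCh38.p14, where 32 of the 40 genes had a promoter, and each runs 5′ to 3′ on the strand of its gene, from 90 bases before the start site to 30 bases after it. Capitals mark CACGTG, which reads the same on both strands, or CACGCG on either strand (CGCGTG when it lies on the other strand). FBL is at chr19:39846350-39846469 (strand minus), IPO4 at chr14:24188787-24188906 (strand minus), MRTO4 at chr1:19251715-19251834 (strand plus), UTP4 at chr16:69132559-69132678 (strand plus), PES1 at chr22:30591881-30592000 (strand minus), DDX21 at chr10:68956557-68956676 (strand plus) and NOP56, which holds neither motif, at chr20:2652542-2652661 (strand plus).
FBL: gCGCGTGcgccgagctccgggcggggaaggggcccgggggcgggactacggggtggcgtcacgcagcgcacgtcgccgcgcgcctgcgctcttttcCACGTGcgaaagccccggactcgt
IPO4: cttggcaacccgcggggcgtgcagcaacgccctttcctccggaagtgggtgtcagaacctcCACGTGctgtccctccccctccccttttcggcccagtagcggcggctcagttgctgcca
MRTO4: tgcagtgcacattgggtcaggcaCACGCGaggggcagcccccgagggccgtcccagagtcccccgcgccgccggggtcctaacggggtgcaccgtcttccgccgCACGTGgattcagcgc
UTP4: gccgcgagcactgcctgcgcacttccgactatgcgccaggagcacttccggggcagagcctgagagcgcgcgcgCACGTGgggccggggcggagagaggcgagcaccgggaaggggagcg
PES1: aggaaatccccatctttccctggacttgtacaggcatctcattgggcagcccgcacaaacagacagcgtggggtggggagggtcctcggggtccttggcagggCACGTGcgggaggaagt
DDX21: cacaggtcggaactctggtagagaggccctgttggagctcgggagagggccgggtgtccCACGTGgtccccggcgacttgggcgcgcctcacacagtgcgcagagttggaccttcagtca
NOP56: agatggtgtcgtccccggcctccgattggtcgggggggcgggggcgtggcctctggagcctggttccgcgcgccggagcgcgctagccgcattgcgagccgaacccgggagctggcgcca

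In windows of 300 bases, 250 before the start and 50 after it, CACGTG was present for 15 of the 32 genes (46.9%), against 8.77% of all 27305 genes with a promoter in the table and 11.8% of the 12803 of them that were tested. CACGCG, searched on both strands, was present for 11 of the 32 (34.4%), against 13.5% of all genes and 20.5% of tested genes. Its 2 strand forms can overlap each other, and CACGTG can overlap neither. Counting the first transcribed base as 1, the first base of CACGTG lay between -64 and 36, at 7 in FBL, 15 in MRTO4, 14 in PES1, -16 in UTP4, -29 in IPO4 and -31 in the second DDX21 promoter. Of the 9 genes with a promoter here that fell in BJ-hTERT at either time, 6 held CACGTG, and of the other 23 genes 9 did (39.1%). The 23 include GNL3, which holds CACGTG, and NPM1, PPAN and TAF1D, none of them among the 35 measured genes. A match is a description of these letters and says nothing of what binds there.

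In mock cells at 24 h, ribosome biogenesis genes stood higher in HEK293 than in BJ-hTERT. The difference passed the limma test (adjusted p under 0.05 over all 17329 genes) for 29 of 35 genes, all higher in HEK293, where 28.9% of all genes were higher and 21.8% lower. All 35 differences were above 0, with a median of 0.82 log2 against 0.06 over all genes. FBL, the methyltransferase that box C/D snoRNPs guide to ribosomal RNA, stood at 10.11, 10.36 and 10.19 log2 in HEK293 mock arrays and at 8.46, 8.55 and 8.71 in BJ-hTERT mock arrays. This was a difference of 1.64 ± 0.11 (SE, n = 3 per group), or 3.12-fold, with limma adjusted p = 3.8e-11. Differences of 1.49 ± 0.15 for POLR1B, the second-largest subunit of RNA polymerase I, and of 1.59 ± 0.16 and 1.58 ± 0.13 for the large subunit factors RRP1B and RRP1 came next. NCL, which encodes the abundant nucleolar protein nucleolin, stood at 9.84, 10.10 and 9.63 in HEK293 and 9.57, 9.69 and 9.63 in BJ-hTERT, and these arrays overlap (adjusted p = 0.20). The others that did not pass were RRP9, DKC1, POLR1E, NOB1 and UTP20.

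Averaged over the 35 genes, doxycycline arrays lay above mock arrays in HEK293 and below them in BJ-hTERT, at both times. The mean was 7.62 (SD 0.0137) log2 with doxycycline and 7.48 (SD 0.0555) in mock HEK293 cells at 24 h, and 7.40 (SD 0.0338) and 7.24 (SD 0.0809) at 72 h. In BJ-hTERT it was 6.38 (SD 0.0979) with doxycycline and 6.62 (SD 0.0535) in mock cells at 24 h, and 6.20 (SD 0.0444) and 6.53 (SD 0.0156) at 72 h. In none of the 4 pairs did a doxycycline array overlap a mock array. These are shifts of a fraction of a log2 unit, and the single genes below show which of them passed a test.

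**Figure D1:**
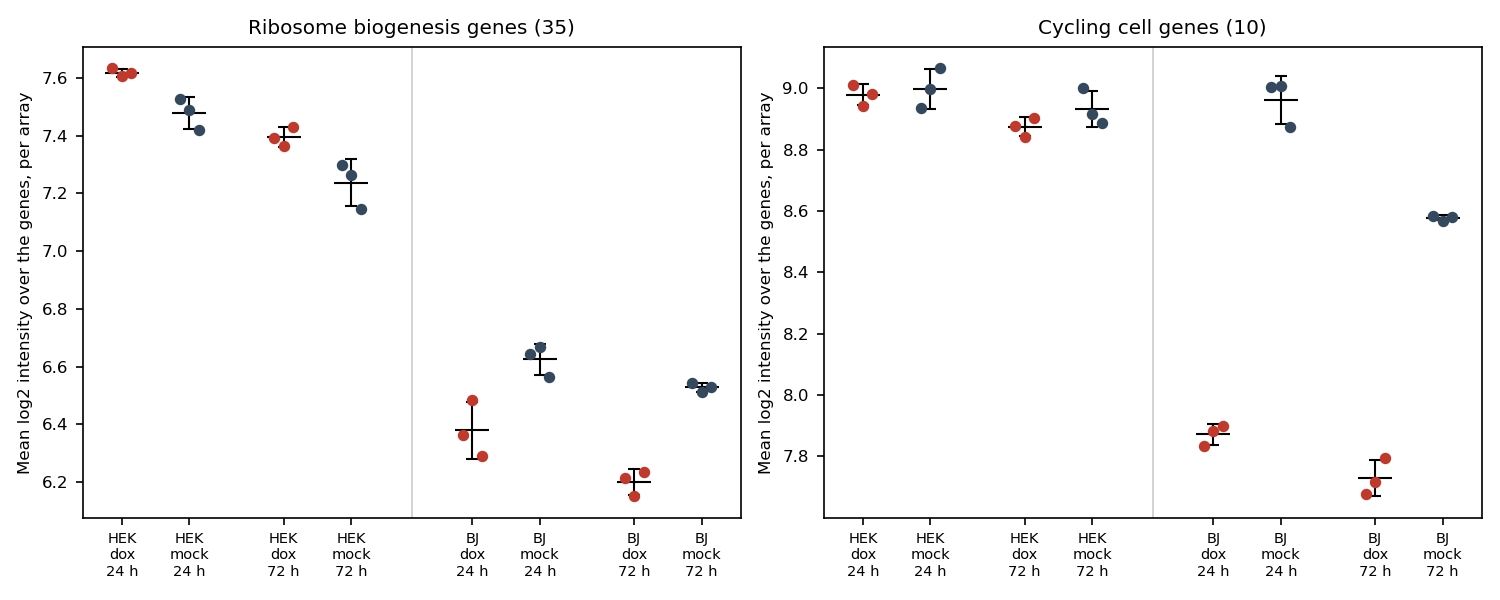
Mean log2 intensity on each array over the 35 ribosome biogenesis genes (left) and over 10 genes of cycling cells (right), by line, treatment and time. Points are arrays (red, doxycycline; dark blue, mock), horizontal lines are group means and bars are SD over 3 arrays. Ribosome biogenesis genes average 6.20 in BJ-hTERT doxycycline arrays at 72 h against 6.53 in mock arrays, and cycling genes 7.73 against 8.58.

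In HEK293 at 24 h the genes leaned upward without any passing the test. Of 35 genes 0 rose and 0 fell, where limma called 0.456% of all genes up and 0.0173% down, and 3 had an unadjusted p under 0.05. Doxycycline minus mock was above 0 for 28 of 35, with a median of 0.13 log2, against 52.3% of all genes and a median of 0.01. For 12 genes all 3 doxycycline arrays lay above all 3 mock arrays and for 0 below, where 8.47% and 5.49% of all genes did so.

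The smallest p-values in HEK293 at 24 h belonged to genes with different roles. DDX21, an RNA helicase that acts on ribosomal RNA and its synthesis, stood at 10.32, 10.31 and 10.25 log2 with doxycycline and at 9.84, 10.02 and 10.19 in mock cells, a difference of 0.28 ± 0.11 (SE, n = 3; limma adjusted p = 0.40). WDR12, a subunit of the PES1-BOP1-WDR12 complex of the large subunit, stood at 7.34, 7.40 and 7.28 with doxycycline and at 6.94, 6.95 and 7.12 in mock cells (0.33 ± 0.14, adjusted p = 0.52). UTP20, a factor of small subunit processing, stood at 7.84, 7.95 and 7.87 with doxycycline and at 7.43, 7.56 and 7.81 in mock cells (0.29 ± 0.14, adjusted p = 0.60). In these 3 genes every doxycycline array lay above every mock array. NOP16, a factor of the large subunit, stood at 5.96, 6.28 and 6.27 with doxycycline and at 5.87, 6.06 and 5.67 in mock cells, where the groups overlap (0.31 ± 0.14, adjusted p = 0.55). The largest subunit of RNA polymerase I, POLR1A, stood at 6.93, 7.09 and 7.03 with doxycycline and at 6.90, 6.78 and 6.74 in mock cells (0.21 ± 0.11, adjusted p = 0.62).

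In HEK293 at 72 h 1 gene rose and 0 fell, where 0.952% of all genes rose and 0.26% fell, so the count of 1 in 35 does not set these genes apart from the background. The gene was IPO4, a nuclear import receptor with ribosomal proteins and histones among its cargo. It stood at 6.68, 6.70 and 6.73 log2 with doxycycline and at 6.40, 5.99 and 6.17 in mock cells, with no overlap. The rise was 0.52 ± 0.12 (1.43-fold, n = 3, limma adjusted p = 0.033), and 28 of its 33 probe sets moved that way. Its call was lost when any 1 of 5 of the 6 arrays was left out and was kept only without mock replicate 1, over a range of 0.42 to 0.62. The count was 0 as well with the median of probe sets, with no filter on genes, with brighter probe sets only and in a fit of the compared groups alone. Over the 35 genes, 26 differences were above 0 with a median of 0.13, against 49.3% of all genes and a median of -0.00. All 3 doxycycline arrays lay above all mock arrays for 10 genes and below for 0, where 9.15% and 8.48% of all genes did so.

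MYC, the regulator among these genes, stood at 7.32, 7.11 and 7.04 log2 in HEK293 with doxycycline for 72 h and at 6.59, 6.33 and 6.64 in mock cells. Its arrays did not overlap, and the difference of 0.64 ± 0.18 did not pass (limma adjusted p = 0.099). At 24 h MYC stood at 7.05, 6.71 and 6.87 with doxycycline and at 6.82, 6.59 and 6.42 in mock cells, where the groups overlap (0.27 ± 0.18, adjusted p = 0.73). UBTF, the factor that holds ribosomal DNA open for RNA polymerase I, stood at 7.97, 8.08 and 7.96 with doxycycline for 72 h and at 7.77, 7.62 and 7.48 in mock cells, without overlap (0.38 ± 0.14, adjusted p = 0.26). Its 24 h arrays overlap, with 8.09, 7.84 and 7.91 with doxycycline and 7.85, 8.14 and 7.86 in mock cells (-0.01 ± 0.14). RRP12, which takes part in the maturation and export of pre-ribosomes, stood at 6.95, 6.99 and 7.0 with doxycycline and at 6.66, 6.83 and 6.45 in mock cells, also without overlap (0.33 ± 0.13, adjusted p = 0.31). FBL, by contrast, stood at 10.29, 10.12 and 10.28 with doxycycline and at 10.23, 10.23 and 10.26 in mock cells at 72 h, a difference of -0.01 ± 0.11. The FBL difference is too near 0 to have a sign, since it was 0.07 with the median of probe sets. At 24 h it stood at 10.26, 10.15 and 10.13 with doxycycline and at 10.11, 10.36 and 10.19 in mock cells, so its HEK293 arrays overlap at both times. NCL overlapped at both times as well, with 10.10, 9.85 and 10.09 with doxycycline and 9.87, 9.60 and 9.69 in mock cells at 72 h (0.29 ± 0.14, adjusted p = 0.43). Its 24 h arrays read 9.78, 9.98 and 10.07 with doxycycline and 9.84, 10.10 and 9.63 in mock cells. POLR1A also overlaps at 72 h, with 6.56, 6.84 and 6.73 with doxycycline and 6.73, 6.81 and 6.49 in mock cells.

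In BJ-hTERT a minority of ribosome biogenesis genes fell with doxycycline. Limma called 6 falls and 0 rises among the 35 at 24 h (17.1% fell), where 4.39% of all genes fell and 4.47% rose, and 10 falls and 0 rises at 72 h (28.6% fell), where 4.59% of all genes fell and 4.03% rose. The called falls were 0.36 to 0.65 log2 in size at 24 h and 0.44 to 0.94 at 72 h. Differences were below 0 for 30 of 35 genes at 24 h, with a median of -0.23, and for 33 of 35 at 72 h, with a median of -0.27. Over all genes 46.4% and 51.5% were below 0, with medians of 0.02 and -0.01. For 10 genes at 24 h and 22 at 72 h all doxycycline arrays lay below all mock arrays, and for 0 above, where 11.3% and 12.9% of all genes lay below and 14.4% and 12.2% above. FBL and MRTO4 fell at both times, which is 33.3% of the falls at 24 h and 20% of those at 72 h, and 14 genes fell at 1 time or both. Without mock replicate 2 the count at 24 h was 3. Without mock replicate 1, and likewise without doxycycline replicate 1, the count at 72 h was 6. A fit of the compared groups alone, with 6 arrays to estimate the spread, gave 0 falls at 24 h and 3 at 72 h, and the median of probe sets gave 4 at 72 h. In the fit of the compared groups alone FBL, RRS1 and IPO4 kept their 72 h calls. With the median of probe sets POLR1C, NOP56, UTP4, PES1, RRS1, GRWD1 and IPO4 lost theirs. FBL, MRTO4 and RRP1B kept theirs, so the 4 include a gene with no call at 72 h in the main fit.

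Genes of cycling cells moved with these falls. Of 10 such genes, MKI67 and TOP2A among them, 10 fell at 24 h (median -1.14) and 9 at 72 h (median -0.88) in BJ-hTERT. Their mean level was 7.83 to 7.90 log2 in doxycycline arrays and 8.87 to 9.01 in mock arrays at 24 h, and 7.68 to 7.79 and 8.57 to 8.58 at 72 h. In HEK293 0 of the 10 were called, with medians of -0.00 at 24 h and -0.07 at 72 h. Their part in the ribosome biogenesis results was not tested.

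**Figure D2:**
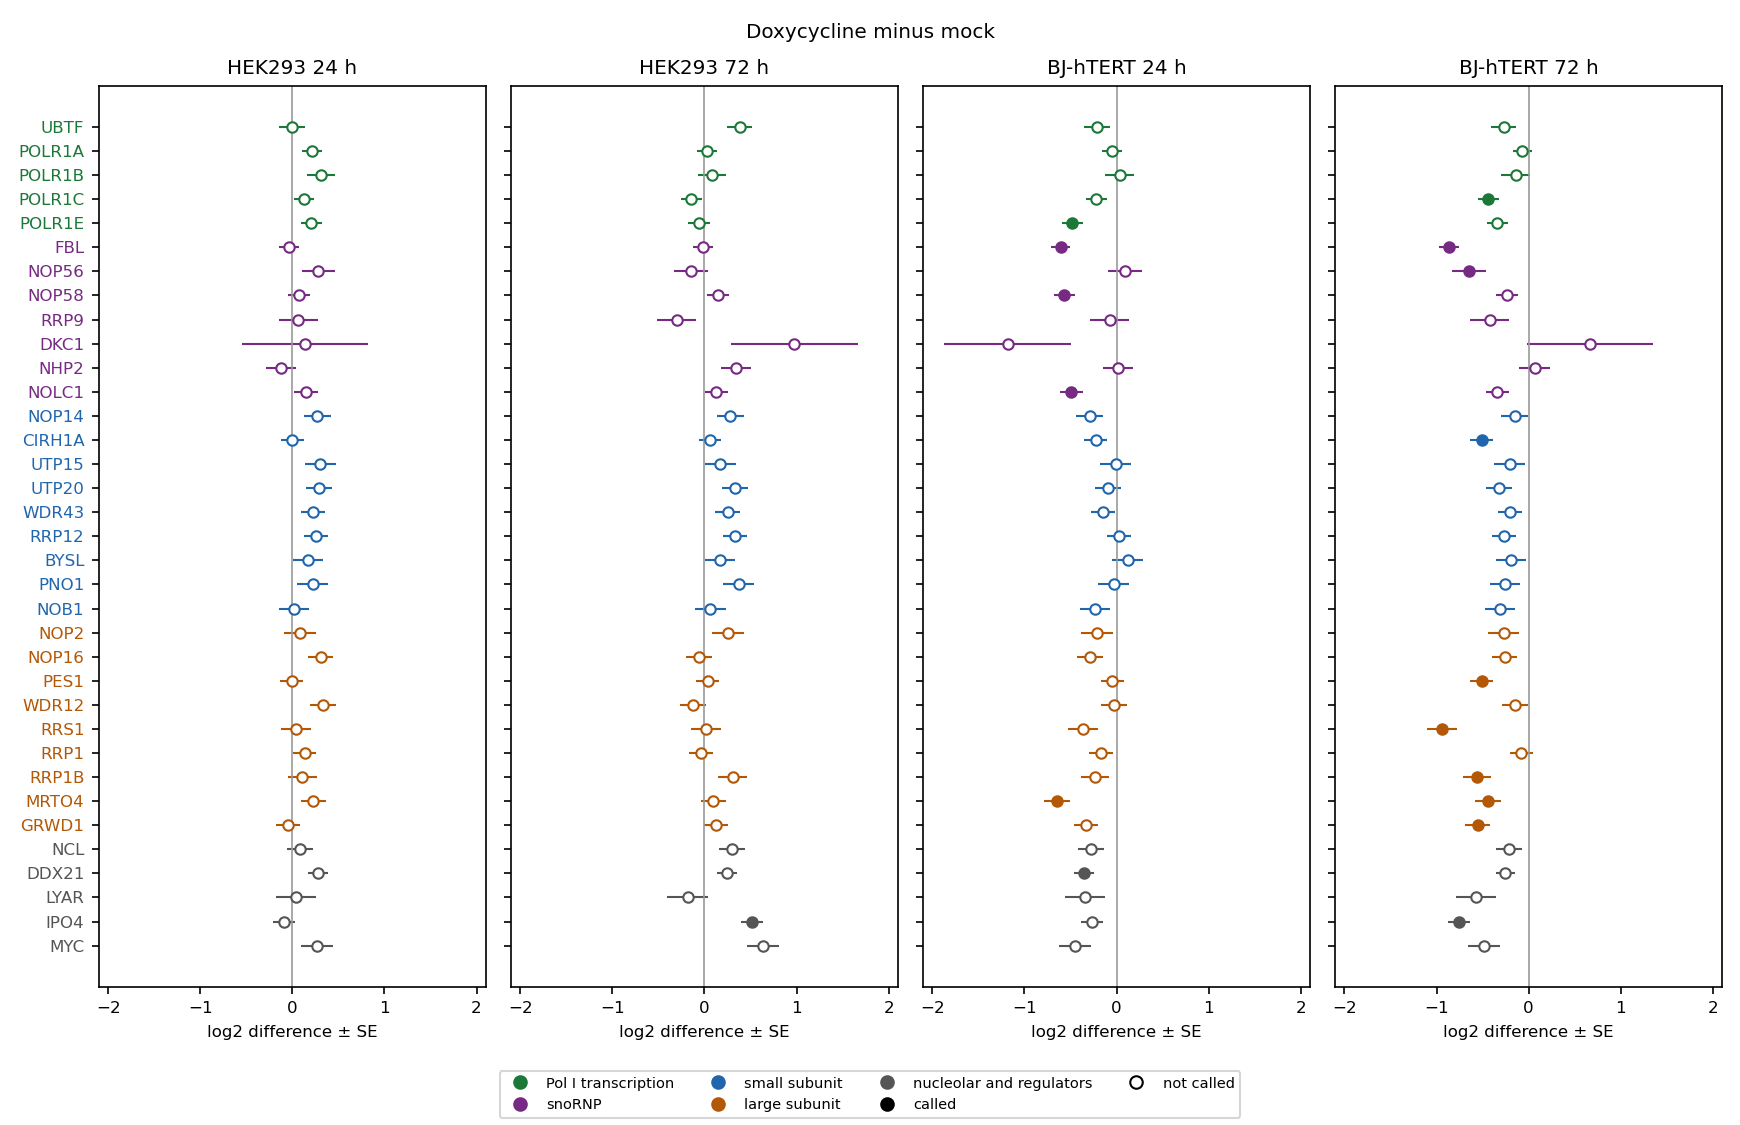
Doxycycline minus mock (log2, horizontal axis, bars are SE of the limma contrast, n = 3 per group) for each of the 35 genes, coloured by role, in the 4 pairs of groups. Filled points passed limma's test at an adjusted p under 0.05. These were 0 and 1 genes in HEK293 at 24 and 72 h, and 6 and 10, all to the left of 0, in BJ-hTERT. The adjustment was made within each pair of groups, so the unadjusted p needed to pass was not the same in the 4 pairs.

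Of the RNA polymerase I genes, POLR1E fell at 24 h and POLR1C at 72 h in BJ-hTERT, and the other 3 passed at neither time. POLR1E, a subunit that takes part in initiation and elongation, stood at 5.76, 5.59 and 5.86 log2 with doxycycline and at 6.17, 6.34 and 6.14 in mock cells at 24 h (-0.48 ± 0.12, limma adjusted p = 0.010). Values at 72 h were 5.85, 5.81 and 5.65 with doxycycline and 6.16, 6.09 and 6.07 in mock cells (-0.34 ± 0.12, adjusted p = 0.078). The groups do not overlap at either time, although only the first passed. POLR1C, a subunit shared with RNA polymerase III, stood at 4.87, 5.01 and 4.96 with doxycycline and at 5.43, 5.38 and 5.35 in mock cells at 72 h (-0.44 ± 0.11, adjusted p = 0.017). UBTF stood at 6.89, 7.22 and 7.37 with doxycycline and at 7.51, 7.37 and 7.25 in mock cells at 24 h, and at 7.04, 7.17 and 6.84 against 7.42, 7.09 and 7.35 at 72 h. Its groups overlap at both times (-0.21 ± 0.14 and -0.27 ± 0.14). POLR1A differed least of the 5 at 72 h, with 6.46, 6.47 and 6.28 with doxycycline and 6.50, 6.49 and 6.41 in mock cells (-0.07 ± 0.11), and at 24 h it stood at 6.36, 6.52 and 6.45 with doxycycline and at 6.49, 6.54 and 6.44 in mock cells. With the median of probe sets the 24 h difference of POLR1E was -0.81 and did not pass (adjusted p = 0.055). The POLR1E call was lost without mock replicate 2 or doxycycline replicate 2 of the 24 h groups, and the POLR1C call without mock or doxycycline replicate 1 of the 72 h groups.

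The snoRNP genes held the change with the smallest p in BJ-hTERT at both times. FBL stood at 8.07, 8.0 and 7.83 log2 with doxycycline and at 8.46, 8.55 and 8.71 in mock cells at 24 h, a fall by 0.61 ± 0.11 (1.52-fold lower, n = 3, limma adjusted p = 0.00066). At 72 h it stood at 7.41, 7.52 and 7.65 with doxycycline and at 8.31, 8.47 and 8.39 in mock cells, a fall by 0.86 ± 0.11 (1.82-fold lower, adjusted p = 2.6e-05). Its groups are apart at both times, and all 8 of its probe sets were lower with doxycycline at both. NOP58, a core protein of box C/D snoRNPs, stood at 8.21, 8.30 and 8.38 with doxycycline and at 8.96, 8.86 and 8.76 in mock cells at 24 h (-0.57 ± 0.12, adjusted p = 0.0030). The 72 h arrays read 8.29, 8.15 and 8.22 with doxycycline and 8.60, 8.37 and 8.40 in mock cells, still without overlap (-0.24 ± 0.12, adjusted p = 0.25). The BJ-hTERT mock arrays of NOP58 read lower at 72 h than at 24 h, but this change did not pass limma's test. With the median of probe sets it was -0.01. The doxycycline arrays of both times lay between 8.15 and 8.38.

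NOP56, the partner of NOP58 in the same particles, stood at 4.55, 4.88 and 4.90 log2 with doxycycline and at 5.32, 5.22 and 5.73 in mock BJ-hTERT cells at 72 h (-0.65 ± 0.18, limma adjusted p = 0.029). It rests on 4 probe sets, all lower at 72 h, and did not pass at 24 h (0.09 ± 0.18), where 3 of the 4 were below 0 and 1 was at 2.49 (median -0.56). NOLC1, a chaperone of snoRNPs that also binds RNA polymerase I, stood at 6.74, 7.25 and 7.04 with doxycycline and at 7.56, 7.53 and 7.41 in mock cells at 24 h (-0.49 ± 0.13, adjusted p = 0.018) and did not pass at 72 h (-0.34 ± 0.13, adjusted p = 0.11). Both sets of arrays that gave these calls are apart, but NOP56 lost its call without mock replicate 1 or 3 or doxycycline replicate 1, and NOLC1 without mock replicate 1 or 2 or doxycycline replicate 1. With the median of probe sets the NOLC1 difference was -0.80 and did not pass (adjusted p = 0.069). Of the rest, the U3 snoRNP protein gene RRP9 stood at -0.07 ± 0.21 and -0.42 ± 0.21 and the box H/ACA protein gene NHP2 at 0.02 ± 0.16 and 0.06 ± 0.16. DKC1, the pseudouridine synthase of box H/ACA snoRNPs, was read by 1 probe set with an SD of up to 1.65 within a group, and its differences of -1.18 ± 0.69 and 0.67 ± 0.69 say little.

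**Figure D3:**
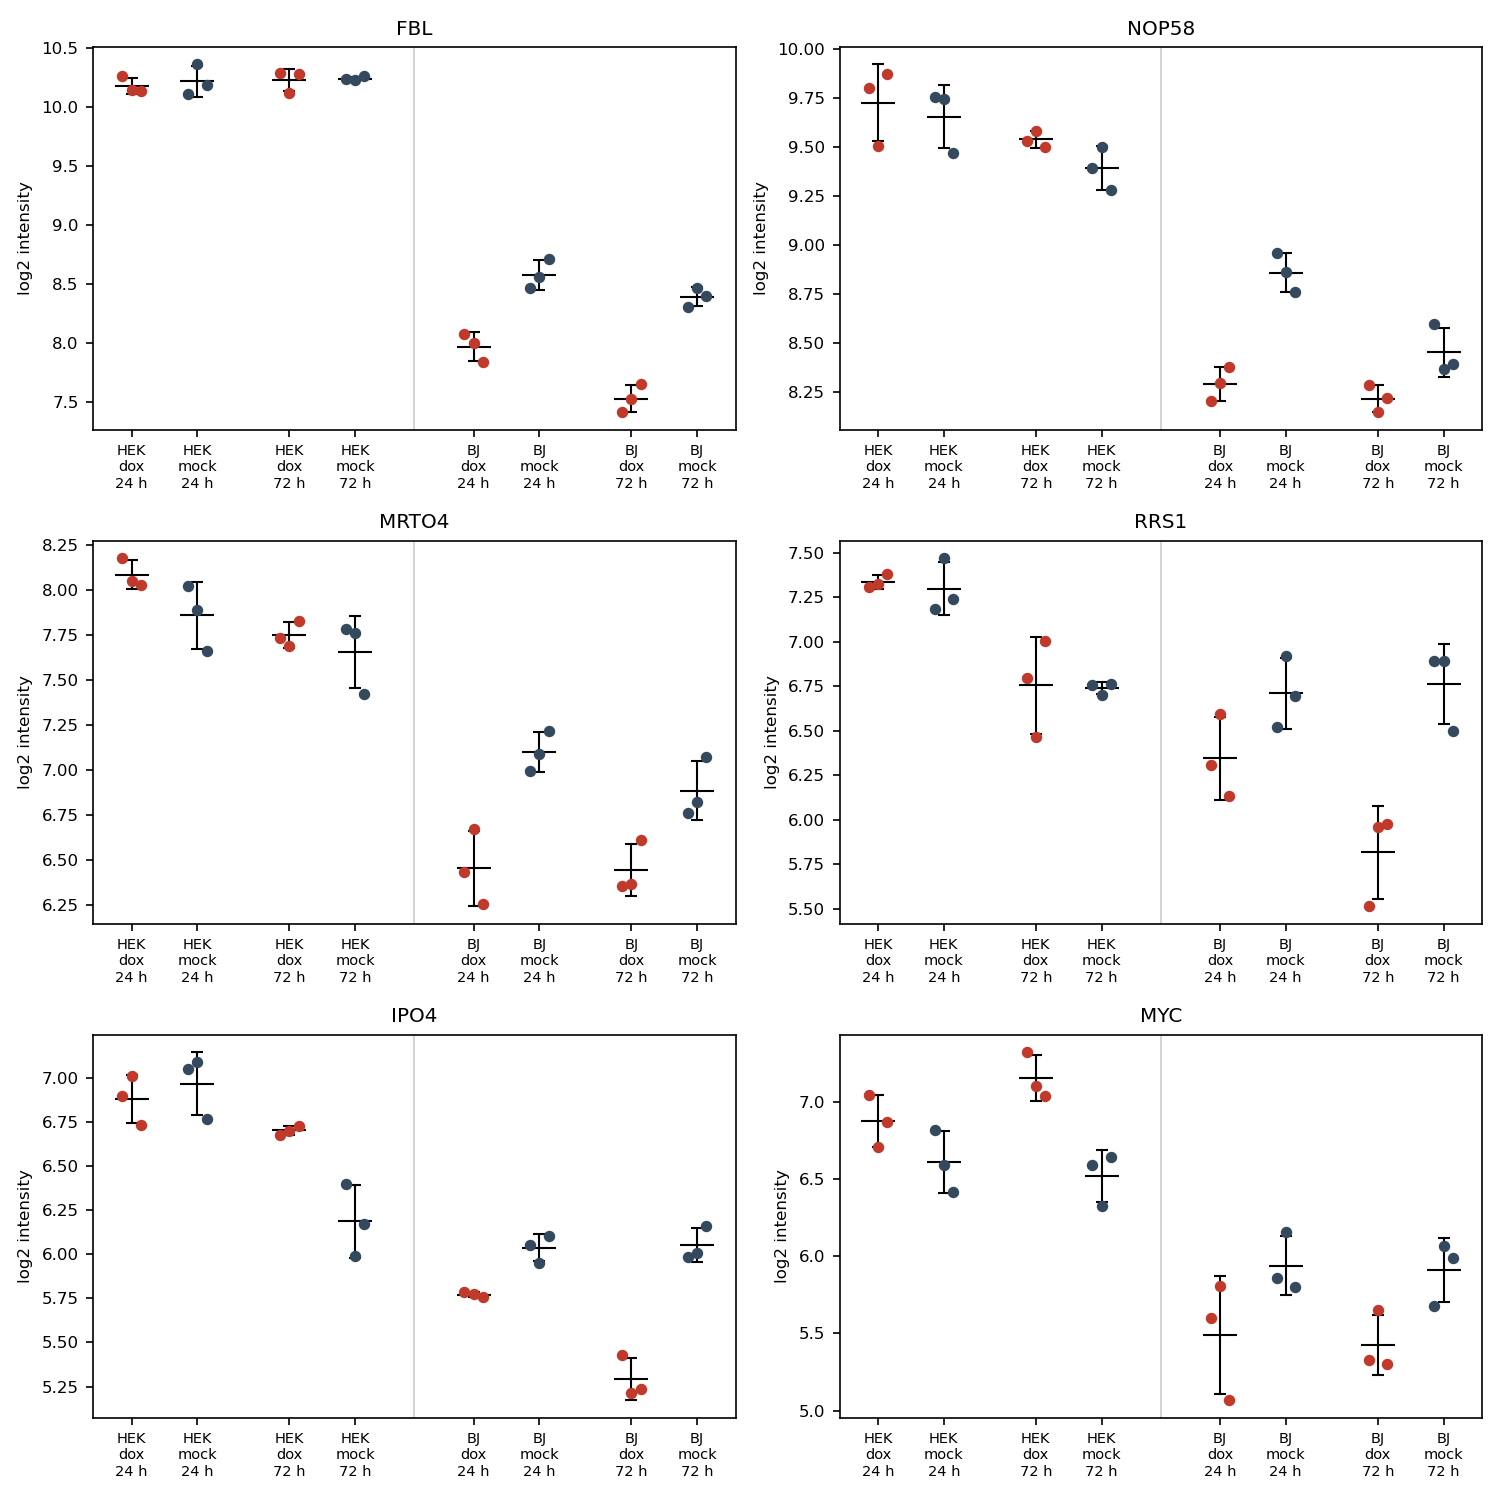
Log2 intensity of 6 genes on each of the 24 arrays, by line, treatment and time; each panel has its own vertical scale, which does not start at 0. Points are arrays (red, doxycycline; dark blue, mock), horizontal lines are group means and bars are SD over 3 arrays. In BJ-hTERT at 72 h FBL, MRTO4, RRS1, IPO4, NOP58 and MYC have every doxycycline array below every mock array, of which NOP58 and MYC did not pass the test.

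Among 9 small subunit genes 1 fell in BJ-hTERT, at 72 h, where 4.59% of all genes fell. This was UTP4 (CIRH1A on the array), a component of the processome that forms on the growing precursor RNA. It stood at 7.94, 7.81 and 8.07 log2 with doxycycline and at 8.48, 8.42 and 8.45 in mock cells, with no overlap (-0.51 ± 0.12, limma adjusted p = 0.010), and lost its call without doxycycline replicate 2. UTP4 also lost its call with the median of probe sets and in a fit of the compared groups alone. At 24 h it stood at 8.29, 7.98 and 8.07 with doxycycline and at 8.51, 8.31 and 8.20 in mock cells, which overlap (-0.23 ± 0.12). The other 8 were all below 0 at 72 h, between -0.15 ± 0.15 for NOP14 and -0.32 ± 0.14 for UTP20, both processome factors. NOB1, the endonuclease that makes the end of 18S ribosomal RNA, and PNO1, the protein that holds it there, were at -0.31 ± 0.17 and -0.26 ± 0.17. In HEK293 none of the 9 passed at either time, and all 9 were above 0 at 72 h.

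Of 9 large subunit genes 1 fell in BJ-hTERT at 24 h and 5 fell at 72 h, where 4.39% and 4.59% of all genes fell. A difference between small and large subunit genes was not tested. RRS1, which helps to bring the 5S RNA particle into the large subunit, stood at 5.51, 5.96 and 5.98 log2 with doxycycline and at 6.89, 6.89 and 6.50 in mock cells at 72 h, a fall by 0.94 ± 0.16 (1.92-fold lower, limma adjusted p = 0.00070). At 24 h its arrays overlap, with 6.31, 6.59 and 6.13 with doxycycline and 6.52, 6.92 and 6.69 in mock cells (-0.37 ± 0.16, adjusted p = 0.20). It rests on 3 probe sets, all 3 lower at both times, but its 72 h call was lost with the median of probe sets. MRTO4, which holds the place of the stalk protein on the maturing large subunit, stood at 6.43, 6.67 and 6.25 with doxycycline and at 6.99, 7.09 and 7.22 in mock cells at 24 h (-0.65 ± 0.14, adjusted p = 0.0036). The values at 72 h were 6.36, 6.37 and 6.61 with doxycycline and 6.76, 6.82 and 7.07 in mock cells (-0.44 ± 0.14, adjusted p = 0.0497). The groups are apart at both times, but the 72 h call was lost without any 1 of 5 of the 6 arrays and was kept only without doxycycline replicate 3. That call was also lost with no filter on genes, quantile normalization, arrays centred on the median, a replicate block or the compared groups alone.

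GRWD1, a chaperone of ribosomal protein L3, stood at 6.63, 6.54 and 6.44 log2 with doxycycline and at 7.19, 7.03 and 7.04 in mock BJ-hTERT cells at 72 h (-0.55 ± 0.13, limma adjusted p = 0.010). At 24 h it stood at 6.77, 6.61 and 6.77 with doxycycline and at 7.18, 6.86 and 7.11 in mock cells, without overlap, and did not pass (-0.33 ± 0.13, adjusted p = 0.14). RRP1B, a nucleolar protein related to RRP1, stood at 6.21, 5.82 and 6.0 with doxycycline and at 6.47, 6.78 and 6.45 in mock cells at 72 h (-0.56 ± 0.16, adjusted p = 0.027). PES1 stood at 5.43, 5.56 and 5.84 with doxycycline and at 5.99, 6.13 and 6.23 in mock cells at 72 h (-0.51 ± 0.12, adjusted p = 0.012), and at -0.05 ± 0.12 at 24 h. These 3 genes had no overlap at 72 h. GRWD1 lost its call without mock replicate 1, in a fit of the compared groups alone and with the median of probe sets, which moved its fall to -0.31 (adjusted p = 0.68). RRP1B lost its call without mock replicate 2 or doxycycline replicate 2 or 3, and PES1 without mock replicate 3 or doxycycline replicate 1. Both lost it in a fit of the compared groups alone, and PES1 also with the median of probe sets. The large subunit genes that passed at neither time were NOP2, NOP16, WDR12 and RRP1, at -0.27 ± 0.17, -0.26 ± 0.14, -0.15 ± 0.14 and -0.08 ± 0.13 at 72 h.

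PES1 acts in 1 complex with BOP1 and WDR12. BOP1, read by 15 probe sets that name several genes, was averaged with those probe sets in a separate fit. It stood at 5.43, 5.46 and 5.48 log2 with doxycycline and at 6.30, 6.24 and 5.83 in mock BJ-hTERT cells at 24 h, a fall by 0.67 ± 0.13 (limma adjusted p = 0.0016). At 72 h it stood at 5.35, 5.54 and 5.61 with doxycycline and at 6.11, 6.32 and 6.04 in mock cells, a fall by 0.66 ± 0.13 (adjusted p = 0.0020). The groups are apart at both times, and in HEK293 BOP1 did not pass (0.17 ± 0.13 at 24 h and 0.28 ± 0.13 at 72 h). Which of the named genes gave this signal was not separated. TAF1D, a subunit of the selectivity factor of RNA polymerase I, and the large subunit genes PPAN and GNL3, read in the same way, passed in neither line at either time; PPAN at -0.47 ± 0.21 in BJ-hTERT at 72 h (adjusted p = 0.19) was the farthest from 0.

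Of the nucleolar genes and regulators, DDX21 fell in BJ-hTERT at 24 h and IPO4 at 72 h. IPO4 stood at 5.43, 5.21 and 5.24 log2 with doxycycline and at 5.99, 6.01 and 6.16 in mock cells at 72 h, a fall by 0.76 ± 0.12 (1.69-fold lower, limma adjusted p = 0.00026), with 27 of 33 probe sets lower. With the median of probe sets IPO4 did not pass at 72 h. At 24 h it stood at 5.78, 5.77 and 5.76 with doxycycline and at 6.05, 5.95 and 6.11 in mock cells, apart but not past the test (-0.27 ± 0.12, adjusted p = 0.20). DDX21 stood at 8.64, 8.60 and 8.47 with doxycycline and at 9.0, 8.96 and 8.81 in mock cells at 24 h (-0.36 ± 0.11, adjusted p = 0.042). This was the smallest of the called falls at 24 h, and it was lost without any 1 of 5 of the 6 arrays and kept only without mock replicate 3. The call was also lost with the median of probe sets, no filter on genes, a replicate block or the compared groups alone. At 72 h DDX21 stood at 8.50, 8.32 and 8.39 with doxycycline and at 8.58, 8.70 and 8.68 in mock cells, again without overlap (-0.25 ± 0.11, adjusted p = 0.17).

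MYC did not pass in BJ-hTERT. It stood at 5.60, 5.80 and 5.07 log2 with doxycycline and at 5.86, 6.16 and 5.80 in mock cells at 24 h (-0.45 ± 0.18, limma adjusted p = 0.13), where the highest doxycycline array lay level with the lowest mock array. Its 72 h values were 5.33, 5.65 and 5.30 with doxycycline and 5.68, 6.07 and 5.99 in mock cells (-0.49 ± 0.18, adjusted p = 0.10). Over 11 alternatives to the main fit the 72 h difference of MYC ran from -0.81 to -0.45, and it passed in 1 of them. NCL stood at 9.46, 9.21 and 9.40 with doxycycline and at 9.57, 9.69 and 9.63 in mock cells at 24 h (-0.28 ± 0.14), and at 9.22, 9.06 and 9.50 against 9.56, 9.57 and 9.30 at 72 h (-0.21 ± 0.14). Its groups are apart at 24 h and overlap at 72 h, and it passed at neither time. LYAR, a nucleolar zinc finger protein gene, stood at 4.82, 4.80 and 4.90 with doxycycline and at 5.71, 5.49 and 5.04 in mock cells at 72 h (-0.57 ± 0.22, adjusted p = 0.12).

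The doxycycline effect itself was compared between the lines, as the HEK293 effect minus the BJ-hTERT effect. At 24 h the difference was above 0 for 34 of 35 genes, with a median of 0.34 log2 against -0.01 over all genes. It passed for 6 of them (17.1%), where 3.17% of all genes were called in that direction and 1.57% in the other: POLR1E, FBL, NOP58, NOLC1, MRTO4 and DDX21. These are the 6 that fell in BJ-hTERT at 24 h, whose arrays enter both contrasts. At 72 h it was above 0 for 35 of 35, with a median of 0.47 against 0.02, and passed for 6 (17.1%), where 2.85% of all genes were called in that direction and 2.42% in the other: FBL, RRS1, RRP1B, GRWD1, IPO4 and MYC. The difference for IPO4 was 1.28 ± 0.17 (limma adjusted p = 0.00017), from 0.52 in HEK293 and -0.76 in BJ-hTERT, each called by itself. MYC differed by 1.12 ± 0.25 (adjusted p = 0.011) although neither of its effects passed alone, and FBL by 0.85 ± 0.15 (adjusted p = 0.0022) with an effect near 0 in HEK293. At each time 24 of the 35 genes were above 0 in HEK293 and below 0 in BJ-hTERT. A difference between lines was lost without 1 array for NOLC1 (11 of 12 arrays), FBL (9), NOP58 (7), POLR1E (3) and DDX21 (1) at 24 h, and for GRWD1 (9), RRP1B (5) and RRS1 (2) at 72 h. MRTO4 at 24 h and FBL, IPO4 and MYC at 72 h kept theirs without each of the 12 arrays. The count at 24 h was 2 without BJ-hTERT mock replicate 2 and 3 without HEK293 mock replicate 1 or 3 or any 1 HEK293 doxycycline replicate. With the median of probe sets the line differences of POLR1E, NOLC1 and GRWD1 were 1.11, 1.21 and 0.38, none past the test. The line difference of RRS1 at 72 h did not pass with that summary either. The 24 h count was 1 with the median of probe sets or the compared groups alone, and 3 with no filter on genes.

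**Figure D4:**
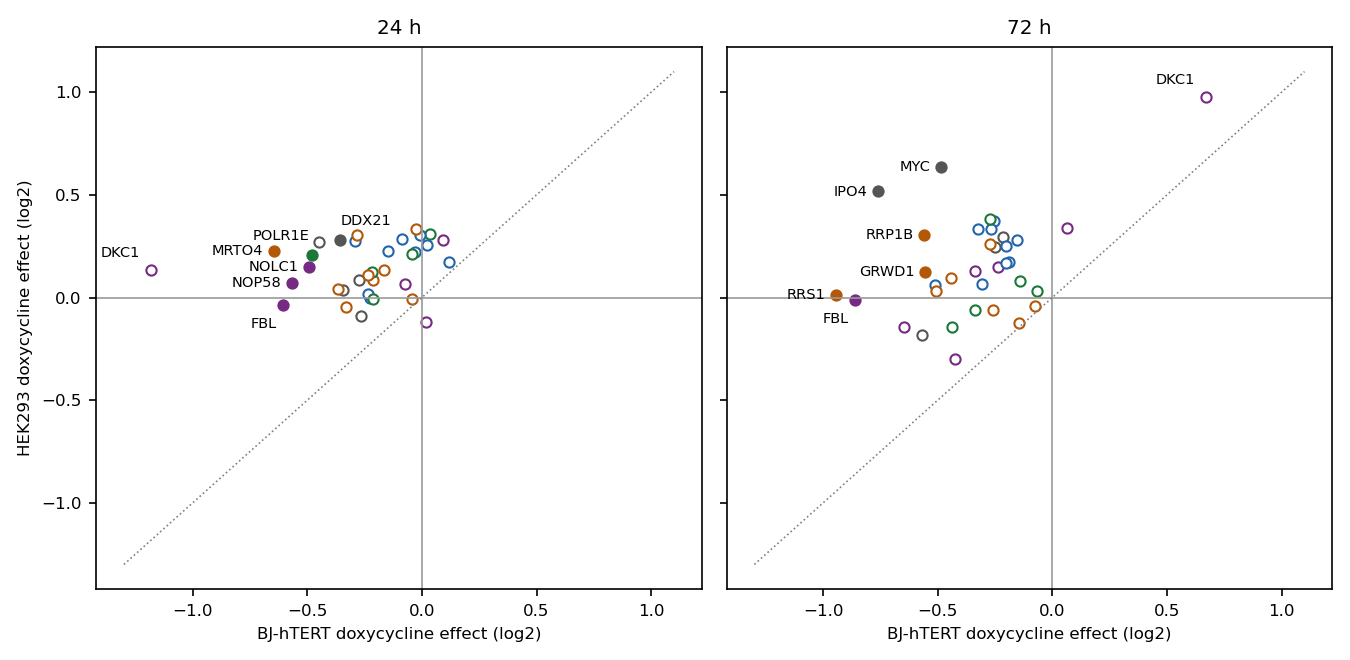
Doxycycline effect (doxycycline minus mock, log2) in HEK293 (vertical) against that in BJ-hTERT (horizontal) for the 35 genes at 24 h and 72 h. Colours give the role (green, RNA polymerase I; purple, snoRNP; blue, small subunit; orange, large subunit; grey, nucleolar and regulators), the dotted line marks equal effects, and filled points are the 6 genes at each time whose effect differed between the lines by limma's test. Points lie above the dotted line for 34 of 35 genes at 24 h and 35 of 35 at 72 h; DKC1 is named because it rests on 1 probe set.

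Between 24 h and 72 h the doxycycline effect did not differ past the test for any of the 35 genes in either line. The 72 h effect minus the 24 h effect was called above 0 for 0.0115% of all genes and below 0 for 0.00577% by limma in HEK293, and for 0% and 0.00577% in BJ-hTERT. At an unadjusted p under 0.05 there were 2 of the 35 in HEK293 and 4 in BJ-hTERT. The median of that difference over the 35 was -0.12 in BJ-hTERT and 0.02 in HEK293, where it ran from -0.03 to 0.05 with single arrays left out and so has no settled sign. So the genes that passed at 1 time only, such as NOP58 at 24 h or RRS1 at 72 h, are not shown to differ between the times.

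Mock HEK293 cells changed over time as well. Between mock arrays at 72 h and mock arrays at 24 h, 2 of 35 genes fell and 0 rose with time, where 0.0981% of all genes fell and 0.271% rose. The difference was below 0 for 31 of 35, with a median of -0.25 log2 against 0.00 over all genes. UTP20 stood at 6.88, 6.94 and 6.56 in mock arrays at 72 h and at 7.43, 7.56 and 7.81 at 24 h, a fall by 0.80 ± 0.14 (1.75-fold lower, limma adjusted p = 0.018), with 44 of 47 probe sets lower. IPO4 stood at 6.40, 5.99 and 6.17 at 72 h and at 7.05, 7.09 and 6.77 at 24 h, a fall by 0.78 ± 0.12 (1.72-fold lower, adjusted p = 0.0060). Neither gene's arrays overlap. UTP20 lost its call without mock 24 h replicate 2 or 3 or mock 72 h replicate 3, which leaves a count of 1. With the median of probe sets, and in a fit of the compared groups alone, the count was 0.

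NOP14 stood at 7.31, 7.49 and 7.08 log2 in mock HEK293 arrays at 72 h and at 7.96, 7.62 and 8.11 at 24 h (-0.60 ± 0.15, limma adjusted p = 0.076). RRS1 stood at 6.76, 6.70 and 6.76 at 72 h and at 7.18, 7.47 and 7.24 at 24 h (-0.56 ± 0.16, adjusted p = 0.14). In both the times are apart without passing. For 12 genes every 72 h array lay below every 24 h array and for 1 above, where 7.93% and 9.08% of all genes did so. NOP56 stood at 0.59 ± 0.18 (adjusted p = 0.16), but its 4 probe sets ran from -0.64 to 2.70 with a median of 0.15, so the mean rests largely on 1 of them. The mock change over time and the HEK293 doxycycline effects share mock arrays, so a low mock level of IPO4 at 72 h enters both its fall over time and its rise with doxycycline. Cycling cell genes showed 0 calls over time in HEK293 mock cells, with a median of 0.00.

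In mock BJ-hTERT cells 0 of 35 genes passed over time, where 0.692% of all genes fell and 1.16% rose, and 4 had an unadjusted p under 0.05. Every 72 h array lay below every 24 h array for 4 genes and above for 1, where 9.1% and 10.3% of all genes did so. The median was -0.09 log2 against 0.01 over all genes, with 25 of 35 below 0. NOP58 came closest, with 8.60, 8.37 and 8.40 at 72 h and 8.96, 8.86 and 8.76 at 24 h (-0.41 ± 0.12, limma adjusted p = 0.085), and its times do not overlap. With the median in place of the mean of its probe sets, the NOP58 difference was -0.01 (adjusted p = 0.99), and with a trended and robust eBayes it stayed at -0.41 and passed (adjusted p = 0.020). DDX21 stood at 8.58, 8.70 and 8.68 at 72 h and at 9.0, 8.96 and 8.81 at 24 h, also apart (-0.27 ± 0.11, adjusted p = 0.24). LYAR stood at 5.71, 5.49 and 5.04 at 72 h and at 6.18, 5.81 and 5.73 at 24 h (-0.50 ± 0.22, adjusted p = 0.29). WDR43, a processome factor, stood at 7.67, 7.84 and 7.73 at 72 h and at 8.20, 8.08 and 7.80 at 24 h (-0.28 ± 0.13, adjusted p = 0.34). The arrays of WDR43 overlap and those of LYAR do not. Of the 10 cycling cell genes 3 fell over this time, with a median of -0.33, and their part was not tested.

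**Figure D5:**
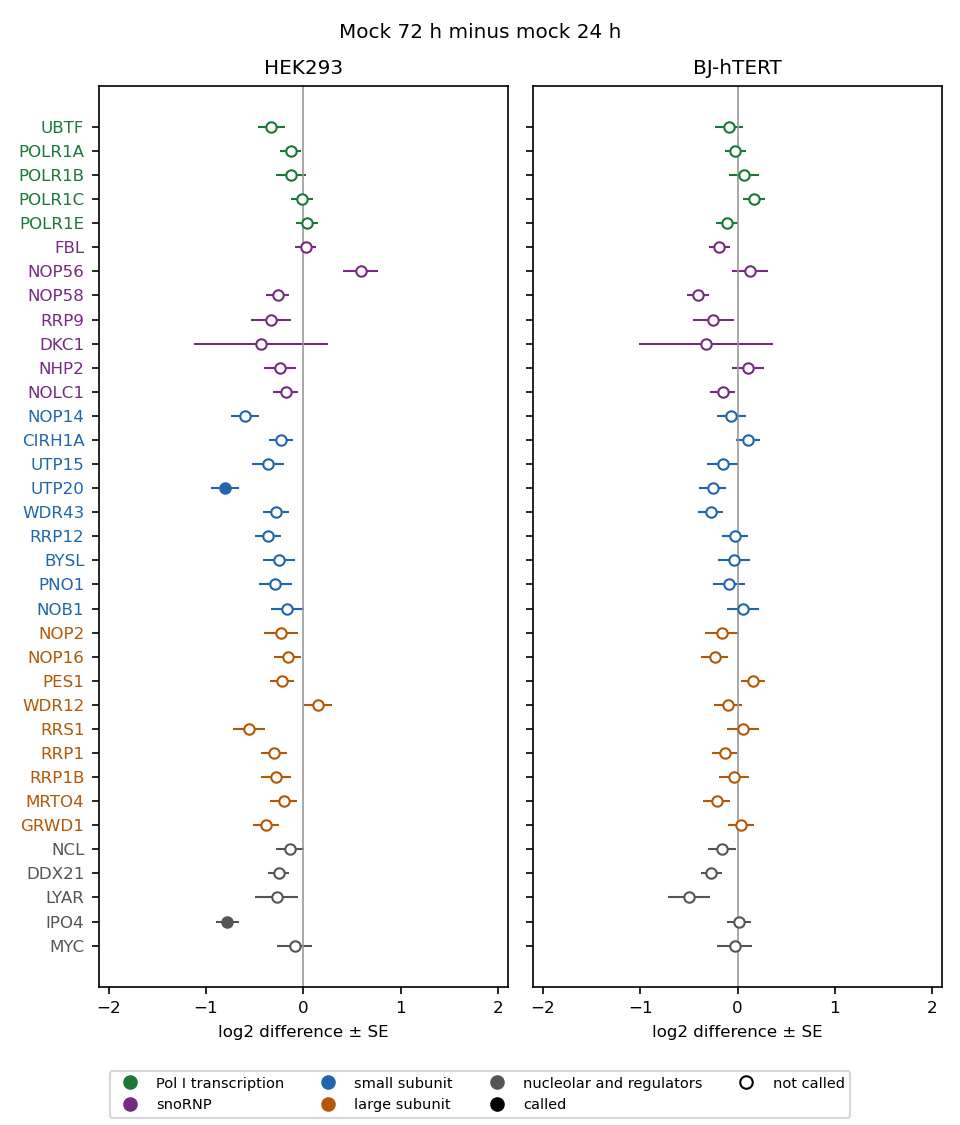
Mock 72 h minus mock 24 h (log2, horizontal axis, bars are SE of the limma contrast, n = 3 per group) for each of the 35 genes, coloured by role, in HEK293 and BJ-hTERT. Filled points passed limma's test: UTP20 and IPO4 in HEK293, none in BJ-hTERT; 31 and 25 of the 35 genes lie below 0.

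Other genes of the same pathway, 127 with probe sets of their own, showed smaller shifts in the same directions. In HEK293 0 were called at either time, with medians of 0.09 log2 at 24 h and 0.06 at 72 h. In BJ-hTERT 13 fell and 2 rose at 24 h (median -0.12), and 15 fell and 1 rose at 72 h (median -0.14), which is 10.2% and 11.8% falling against the 4.39% and 4.59% of all genes given above. Nuclear exosome and trimming genes, which shorten precursor RNA, gave 4 falls of 17 at 24 h and 6 of 17 at 72 h. The exoribonuclease gene EXOSC10 fell by 0.67 ± 0.11 at 24 h (limma adjusted p = 0.00025) and the core gene EXOSC8 by 0.89 ± 0.18 and 0.67 ± 0.18. Of 12 further snoRNP genes 1 fell at 24 h and 3 at 72 h, led by RUVBL2, an ATPase that helps to assemble box C/D particles, at -0.85 ± 0.10 at 72 h, and TCOF1, the treacle nucleolar protein gene, at -0.55 ± 0.15. Of 10 further RNA polymerase I genes 1 fell at each time, CD3EAP (now POLR1G) by 0.52 ± 0.15 at 24 h and ZNRD1 (now POLR1H) by 0.52 ± 0.13 at 72 h. A count of 1 in 10 is too small to set against the share of all genes.

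Of 44 further small subunit genes 3 fell and 1 rose in BJ-hTERT at 24 h, and 1 fell at 72 h. Of all genes 4.39% fell and 4.47% rose at 24 h, and 4.59% fell and 4.03% rose at 72 h. The small subunit counts therefore do not set these 44 genes apart from the background. DCAF13 was the 1 that rose, by 0.86 ± 0.16 (limma adjusted p = 0.00093), and the helicase gene DHX37 fell by 0.43 ± 0.12. The processome gene NOL11 fell by 0.35 ± 0.10 at 72 h. Of 44 further large subunit genes 4 fell and 1 rose at each time. SPATA5 (now AFG2A), an ATPase of late maturation, fell by 0.77 ± 0.14 and EBNA1BP2 by 1.90 ± 0.43 at 24 h, and EIF6, the factor that keeps the subunits apart, fell by 0.50 ± 0.13 at 72 h. The gene that rose was SBDS at both times (0.46 ± 0.14 and 0.48 ± 0.14), named here after its values were seen, which acts with others in the release of EIF6 from the large subunit. Around MYC, 9 genes of its network were tested. MXI1, a repressor that shares MYC's partner MAX, rose in BJ-hTERT by 0.84 ± 0.17 at 24 h and 0.74 ± 0.17 at 72 h, and MXD3, another gene of that family, fell by 0.88 ± 0.23 and 0.76 ± 0.23. In HEK293 0 of the 9 passed at either time. At 72 h MXI1 stood there at 0.44 ± 0.17 and MXD3 at -0.69 ± 0.23, in the same directions as in BJ-hTERT. The line difference did not pass for MXI1 at 24 h or 72 h (limma adjusted p = 0.13 and 0.54). Nor did it pass for MXD3 at 24 h (limma adjusted p = 0.095).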

How the data were processed

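RNA was measured on 24 arrays (Affymetrix Human Gene 2.1 ST), each with 352859 probe sets. The authors deposited log2 values per probe set; GCOS, RMA (background correction, quantile normalization and summarisation) and Affymetrix Expression Console are named in the submitters' processing notes, and the series design text names the R packages oligo and limma. Not given in the sources used here are the annotation version and which arrays were normalized together. The number of arrays limits the precision.

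Of these probe sets 275431 had a gene symbol, 257971 of them 1 symbol and 17460 several, by GEO's platform annotation, updated through RefSeq. A gene's level was the mean log2 value of its probe sets with 1 symbol. Genes whose highest group mean was under the 40th percentile of group means were left out (7700 of 25029). Groups followed the sample labels, and the spelling HEK239 in titles was read as HEK293. Limma 3.58.1 (R 4.3.3, statmod 1.5.0) was fitted to the 8 group means of all 24 arrays, with eBayes and Benjamini-Hochberg adjustment over 17329 genes for each of 11 contrasts, and called genes at an adjusted p under 0.05. Intervals after ± are SE of the contrast unless SD is named. The steps were tested on simulated data.

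The members and the other lists were chosen with earlier results of these data known. Values per array are given for the 4 members of smallest p in each comparison, for MYC, UBTF, POLR1A, FBL and NCL, and for members that passed; of each other list at most the 2 of smallest p were named, and exceptions are said to be such. Alternatives were another summary of probe sets, other filters, another normalization of the deposited values, removal of probe sets that copy another, a fit of the compared groups alone, a replicate block, a trended and robust eBayes, probe sets with several symbols included, and each array left out. The restriction to genes with 5 or more probe sets was chosen after seeing the data. Promoters came from a RefSeq table on GRCh38.p14. Motif letters were searched as exact matches. NPM1 was counted among the promoters, and its expression was not analysed here.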

Additional observations from a re-analysis of the deposited data

Results flagged for a closer look

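In 12 cases the doxycycline effect on a ribosome biogenesis gene differed between HEK293 and BJ-hTERT by limma's test of the difference itself (HEK293 effect minus BJ-hTERT effect, log2, adjusted over all genes tested). At 24 h these were POLR1E at 0.687 (SE 0.164, adjusted p = 0.017), FBL at 0.57 (SE 0.152, adjusted p = 0.034), NOP58 at 0.636 (SE 0.166, adjusted p = 0.030), NOLC1 at 0.64 (SE 0.181, adjusted p = 0.046), MRTO4 at 0.872 (SE 0.194, adjusted p = 0.010) and DDX21 at 0.637 (SE 0.152, adjusted p = 0.016). At 72 h they were FBL at 0.849 (SE 0.152, adjusted p = 0.0022), RRS1 at 0.958 (SE 0.233, adjusted p = 0.018), RRP1B at 0.866 (SE 0.220, adjusted p = 0.024), GRWD1 at 0.679 (SE 0.188, adjusted p = 0.039), IPO4 at 1.28 (SE 0.169, adjusted p = 0.00017) and MYC at 1.12 (SE 0.251, adjusted p = 0.011). FBL is the gene that passed at both times. Among these values IPO4 at 72 h is the case with calls of opposite sign in the lines, and MYC the case with a call in neither line alone. The same difference passed for 9 of 10 cycling cell genes at 24 h (median 1.11) and 8 of 10 at 72 h (median 0.83), and their part in these differences was not tested. No group of 3 arrays was large enough to test for a single outlying array.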

How the results depend on the processing

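No called difference that was followed gene by gene changed its sign under an alternative. The mock line differences at 24 h were followed only as a count and a median. Signs did change for HEK293 values near 0 that passed no test: with the median of probe sets, UBTF at 24 h (0.29), NCL at 24 h (-0.09) and FBL at 72 h (0.07), FBL at 72 h also with centred arrays (0.01), and, with single arrays left out, these 3 genes, FBL at 24 h, POLR1A at 72 h and the median time difference. The count of genes with a call changed by over 1.5 times in these cases. With the median in place of the mean of probe sets it was 0 for HEK293 at 72 h, 4 for BJ-hTERT at 72 h, 1 for the line difference at 24 h (whose median change was 0.51) and 0 for HEK293 mock cells over time. With no filter on genes it was 0 for HEK293 at 72 h and 3 for the line difference at 24 h, and with brighter probe sets only, 0 and, for the line difference at 72 h, 11. A fit of only the groups compared gave 0 for HEK293 at 72 h, 0 for BJ-hTERT at 24 h, 3 for BJ-hTERT at 72 h, 1 for the line difference at 24 h and 0 for HEK293 mock cells over time; it has fewer arrays to estimate the spread. A trended and robust eBayes gave 10 for the line difference at 72 h and 1, NOP58, for BJ-hTERT mock cells over time. Centring arrays on the median moved the median mock line difference to 0.70. With 1 array left out the counts ran from 0 to 1 for HEK293 at 72 h, 3 to 6 and 6 to 9 for BJ-hTERT at 24 and 72 h, 2 to 5 and 4 to 6 for the line differences at 24 and 72 h, 1 to 2 for HEK293 mock cells over time and 28 to 30 for the mock line difference, and stayed at 0 elsewhere. Where the cause of a change is not stated it was not tested.

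Replicate numbers did not pair the arrays: correlations of deviations from the group means were -0.0521 to 0.0860 over 36 pairs with the same number (median 0.00535), against a median of -0.000513 over 72 pairs with different numbers. With the number as a replicate block the count was 1 for HEK293 at 72 h (MYC in place of IPO4), 5 and 10 for BJ-hTERT at 24 and 72 h, 3 and 6 for the line differences and 2 for HEK293 mock cells over time.

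Limits are the 3 arrays per group, of unstated independence, and low probe set numbers for DKC1 (1), RRS1 (3) and NOP56 (4); with genes of 5 or more probe sets only, chosen after seeing the data, the counts were 6 and 8 in BJ-hTERT. Including probe sets with several symbols gave 9 and 11 in BJ-hTERT.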
